A study of Mus musculus with 8 samples.

Results

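The triad is the junction at which a transverse tubule (T-tubule), an inward fold of the muscle fibre membrane, meets the sarcoplasmic reticulum, the calcium store of the fibre. A set of 10 genes with a role at this junction was chosen by symbol and looked up in the count tables: the calcium channel subunits Cacna1s, Cacna2d1, Cacnb1 and Cacng1, the channel adaptor Stac3, the junctional proteins Trdn, Jph1 and Jph2, and the store-operated calcium entry genes Stim1 and Orai1. All 10 matched 1 identifier of the 22880 listed, and all 10 were among the 14001 genes with enough counts to be tested.

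Transcripts were sequenced in the soleus, a calf muscle rich in slow fibres, from 4 control mice (Dnm2 +/+) and 4 Dnm2 wt/K562E mice (Dnm2 +/K562E), all males aged 2 months of the C57BL/6 strain (C57BL/6J by the methods). Dnm2 encodes dynamin 2, a GTPase that pinches membrane tubules, and the mutant mice carry 1 Dnm2 allele with the K562E point mutation in the germline, so the allele is not confined to muscle. The question addressed was which transcripts differ in mutant muscle. Total counts were 36384212, 36537889, 48832814 and 35412828 in controls 1 to 4 and 33407430, 39015663, 39460486 and 35702196 in Dnm2 wt/K562E mice 1 to 4. The unit of level used here is normalized CPM, that is, counts scaled to a library of common size and adjusted by a TMM factor, which compares libraries through genes that differ little between them. Each mouse is 1 replicate (n = 4 per genotype). Control 4 stood apart from controls 1 to 3 in Myh4, the fastest myosin, with 3134 normalized CPM against 426.4, 371.6 and 162.8, and the members' counts are therefore also given without it.

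In skeletal muscle, a depolarization that enters the T-tubule moves the voltage sensor of the L-type calcium channel, whose pore subunit is encoded by Cacna1s. The sensor is coupled mechanically to the ryanodine receptor Ryr1 in the facing reticulum, which then releases calcium and starts contraction. Junctophilins hold both membranes together, triadin links the ryanodine receptor to the calcium-binding protein calsequestrin, and STIM1 opens ORAI1 at the surface when the store runs low. Variants of genes of this machinery are known causes of inherited muscle weakness and of malignant hyperthermia.

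Promoter sequence is shown for 2 members that were lower in the mutants and for which RefSeq (GRCm38.p6) gave a start, the pore subunit Cacna1s and the junctophilin Jph2. The table held 6 of the 10 members, and Cacng1, Stac3, Jph1 and Trdn were not among them. Only bases before both the RefSeq and the GENCODE start are printed, 5′ to 3′ in the direction of the gene, for Cacna1s chr1:136052561-136052749 (plus strand) and for Jph2 chr2:163397994-163398193 (minus strand). Capitals mark E-boxes, the letters CANNTG, which on either strand are the same pattern and which myogenic factors such as MyoD and myogenin are known to bind.
Cacna1s: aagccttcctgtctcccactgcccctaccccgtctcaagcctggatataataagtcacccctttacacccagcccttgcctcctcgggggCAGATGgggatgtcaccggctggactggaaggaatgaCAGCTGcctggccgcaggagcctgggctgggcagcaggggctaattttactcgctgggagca
Jph2: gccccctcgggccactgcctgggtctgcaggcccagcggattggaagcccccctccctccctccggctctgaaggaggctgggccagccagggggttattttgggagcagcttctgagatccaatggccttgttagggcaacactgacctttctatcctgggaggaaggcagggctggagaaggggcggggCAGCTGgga
Both windows held the E-box CAGCTG, which began 123 bases before the RefSeq start of Cacna1s and 9 bases before that of Jph2. Cacna1s held a second E-box, CAGATG, 160 bases before the start. Of 32851 RefSeq promoter windows of 250 bases, 66.2% held a CANNTG and 13.0% a CAGCTG, so neither match sets these genes apart. Among the other 4 members with a window, Orai1 held a CAGCTG 246 bases before its start, Stim1 held a CAGTTG 182 bases before its start, and Cacna2d1 and Cacnb1 had no CANNTG. The letters of the muscle CAT box, CATTCC on either strand, occurred in 1 member, Cacna1s, and in 12.6% of all windows. These are letter matches, and binding was not measured.

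Of the 10 genes, 7 differed between the genotypes, and the changes were unequal within the channel complex itself. Cacng1 was 2.10-fold higher in Dnm2 wt/K562E soleus, while Stac3, Jph1 and Jph2 fell to 0.467, 0.523 and 0.575 of the control level. Smaller changes were a rise of Cacnb1 (1.17-fold) and falls of Cacna1s (to 0.784) and Trdn (to 0.782). Cacna2d1, Stim1 and Orai1 did not pass the test. With edgeR's quasi-likelihood test and an adjusted p under 0.05, 2 members were thus higher and 5 lower, against 22.2% of all tested genes higher and 21.7% lower. The split was 3 higher and 3 lower with scaling by total counts alone, where 40.1% of all tested genes were higher and 10.7% lower. It was 4 higher and 3 lower with scaling to 6 mature myofibre genes, where 50.1% of all tested genes were higher and 6.45% lower. With TMM scaling, when a log2 change of 0.58 or more was required too, 1 was higher and 3 were lower, against 12.9% and 7.85% of all tested genes. Without control 4, 2 members were higher and 6 lower by adjusted p, Cacna2d1 being the gene added. With the fold change threshold the counts remained 1 and 3. On leaving out each mouse in turn, 2651 to 3225 of all genes were higher and 2629 to 3172 lower by adjusted p. The values of both genotypes did not overlap for 8 of the 10 members, which was the case for 41.2% of tested genes. The median log2 fold change was -0.29 over the members and 0.00743 over all tested genes. In bulk tissue, fewer cells of a type and less RNA per cell cannot be told apart.

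**Figure D1:**
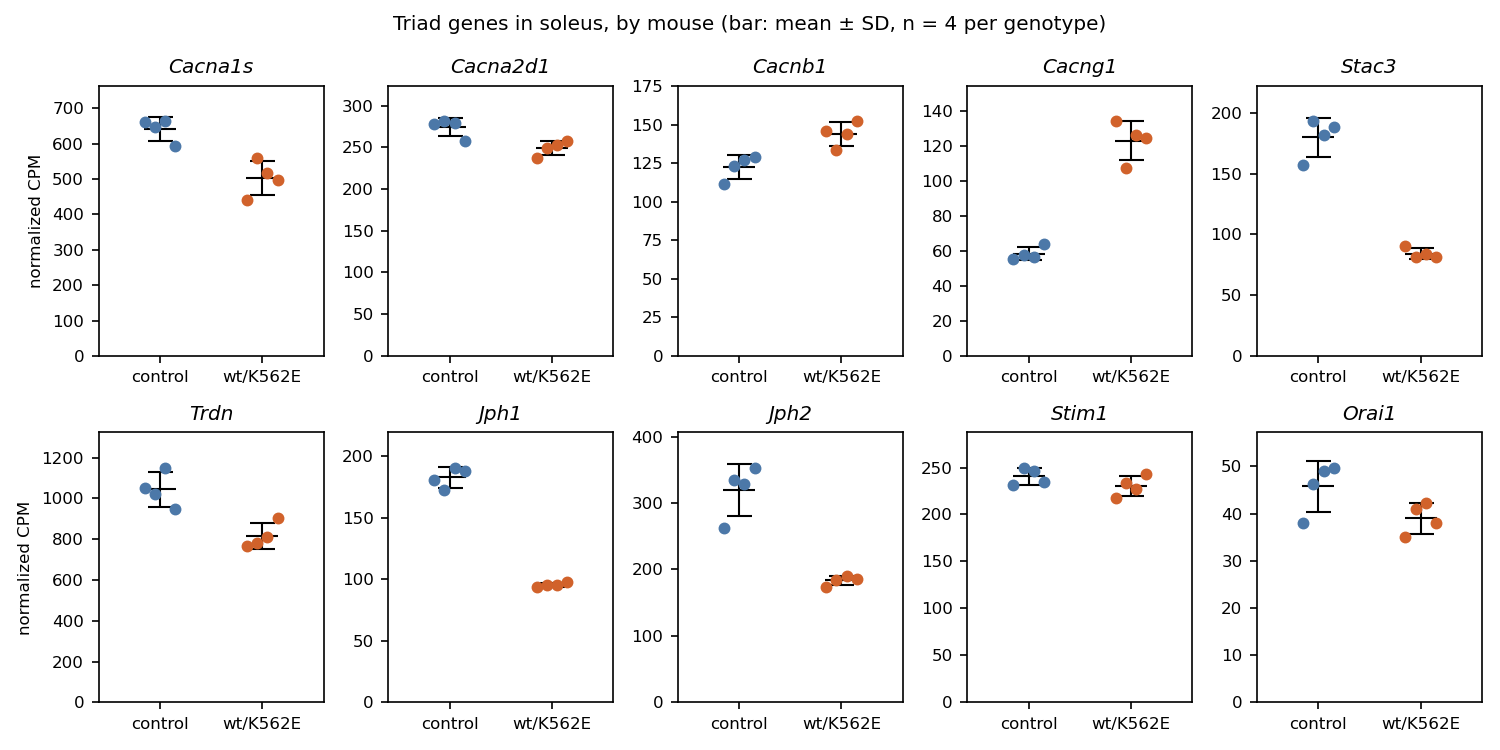
Normalized CPM (vertical axes, each from 0) of the 10 triad genes in each control (blue) and Dnm2 wt/K562E (orange) mouse, with mean ± SD over 4 mice. The genotypes overlap for Stim1 and Orai1 only, and Cacng1 is the gene with the widest rise, from 58.4 ± 3.64 to 122.9 ± 11.4.

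The L-type channel is a complex of a pore subunit with 3 accessory subunits. Cacna1s (chr1:136052750-136119822, GRCm38, plus strand) encodes the pore and voltage sensor. It measured 661.8, 646.5, 663.0 and 592.8 normalized CPM in controls 1 to 4 and 440.8, 558.0, 515.4 and 495.6 in Dnm2 wt/K562E mice 1 to 4. Every mutant value lay below every control value, and the log2 fold change was -0.35 (SE 0.077, adjusted p = 0.00386, edgeR). This fall did not pass the test when libraries were scaled by their total counts alone (-0.14, adjusted p = 0.139). Of the 31-base stretches in Cacna1s transcripts, 18.058% also occur in other gene models, mainly Gm37759. The annotation places Gm37759 on the opposite strand at chr1:136116577-136119822, within Cacna1s. No other counted gene overlapped the exons of Cacna1s. The strand setting of the counting is not given in the sources used here. Whether reads of Gm37759 were counted in Cacna1s is therefore not known.

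Cacng1 (chr11:107703218-107716522, minus strand) encodes the gamma subunit of the muscle channel, which is known to dampen the calcium current. Controls measured 55.44, 57.85, 56.73 and 63.68 normalized CPM and Dnm2 wt/K562E mice 134.0, 107.1, 126.4 and 124.2. The lowest mutant lay well above the highest control, with a log2 fold change of 1.07 (SE 0.078, adjusted p = 2.79e-06, edgeR). By p-value, Cacng1 ranked 178 of all tested genes.

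Cacnb1 (chr11:98001508-98023034, minus strand) encodes the beta subunit, which is needed for the channel to reach the triad. It was 111.3, 123.1, 127.1 and 129.2 normalized CPM in controls and 145.7, 133.8, 143.7 and 152.3 in the mutants. The groups did not overlap, although the gap between the highest control and the lowest mutant was small, and the log2 fold change was 0.23 (SE 0.066, adjusted p = 0.0153, edgeR). Cacna2d1 (chr5:15934691-16374511, plus strand), the alpha-2/delta-1 subunit, also separated the genotypes, with 278.0, 281.2, 278.9 and 257.8 in controls and 236.8, 249.4, 253.0 and 256.9 in mutants. Its log2 fold change of -0.14 (SE 0.056) did not pass the test (adjusted p = 0.0657, edgeR). It passed with DESeq2 (-0.14, adjusted p = 0.0389) and without control 4 (-0.17, adjusted p = 0.0343), but it was 0.07 with scaling by total counts alone and passed in the opposite direction when scaled to 6 mature myofibre genes (0.20, adjusted p = 0.0293).

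Stac3 (chr10:127501686-127508823, plus strand) encodes an adaptor that binds the channel and is required for coupling in skeletal muscle. Its level was 157.0, 193.1, 182.0 and 188.1 normalized CPM in controls and 90.22, 81.07, 84.22 and 81.13 in Dnm2 wt/K562E mice. The highest mutant was far below the lowest control, control 1. The log2 fold change was -1.10 (SE 0.074, adjusted p = 1.83e-06, edgeR), and Stac3 ranked 122 by p-value. The means were 180.1 ± 16.0 and 84.2 ± 4.30 (SD, n = 4).

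Among the junctional proteins, both junctophilins and triadin fell. Jph1 (chr1:16964560-17097889, minus strand), the junctophilin of skeletal muscle, measured 180.4, 172.2, 190.7 and 188.2 normalized CPM in controls and 93.45, 95.71, 95.36 and 97.67 in mutants. The mutant mice were close to each other (coefficient of variation 1.81%), and the log2 fold change was -0.94 (SE 0.054, adjusted p = 8.58e-07, edgeR). Jph1 had the smallest p of the 10, at rank 54 of all tested genes.

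Jph2 (chr2:163336242-163397993, minus strand), the junctophilin that the heart uses too, measured 262.6, 334.6, 328.3 and 353.1 in controls and 174.1, 184.0, 190.9 and 186.0 in mutants. Control 1 was the lowest control and still above all 4 mutants, with a log2 fold change of -0.80 (SE 0.087, adjusted p = 3.91e-05, edgeR). Trdn (chr10:33080554-33476709, plus strand), which encodes triadin, was the member with the most counts. It was 1053, 1022, 1150 and 948.4 in controls and 766.7, 780.4, 810.4 and 905.5 in mutants. Mutant 4 came close to control 4 without reaching it, and the log2 fold change was -0.35 (SE 0.078, adjusted p = 0.00377, edgeR). With scaling by total counts alone, the value of Trdn was -0.14 (adjusted p = 0.0753).

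Neither store-operated entry gene passed the test. Stim1 (chr7:102267806-102437319, plus strand), the calcium sensor of the reticulum, was 231.2, 249.8, 245.9 and 234.9 normalized CPM in controls and 217.9, 233.3, 227.0 and 243.2 in mutants. The genotypes overlapped, with a log2 fold change of -0.06 (SE 0.057, adjusted p = 0.407, edgeR), which became 0.15 (adjusted p = 0.0331) with scaling by total counts alone. Orai1 (chr5:123015074-123030456, plus strand), the channel opened by STIM1, was 37.95, 46.36, 49.02 and 49.72 in controls and 34.98, 40.91, 42.31 and 37.92 in mutants. Control 1 lay inside the range of the mutants. The log2 fold change was -0.23 (SE 0.095, adjusted p = 0.0720, edgeR), and it passed the test without control 1 (-0.32, adjusted p = 0.00621).

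The scaling between libraries sets the zero of all these changes, since the TMM factors of the controls lay between 0.9145 and 0.9594 and those of the mutants between 1.0367 and 1.1031. Scaling by total counts alone moved the median over all genes to 0.22 on the log2 scale. Scaling to 6 marker genes of the mature fibre (Acta1, Ckm, Ttn, Neb, Des and Mb), an alternative chosen after seeing the data, moved it to 0.35. Cacng1 and Cacnb1 stayed higher, and Stac3, Jph1 and Jph2 stayed lower, with an adjusted p under 0.05 in all 18 alternatives run. Relative to the fibre genes, Stac3 was -0.76, Jph1 -0.60 and Jph2 -0.46 on the log2 scale, and Cacna1s and Trdn were at -0.02 each. The 6 fibre genes are not a uniform baseline. With TMM scaling they ranged from -1.02 (Ckm) to 0.72 (Des, the only one that rose).

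**Figure D2:**
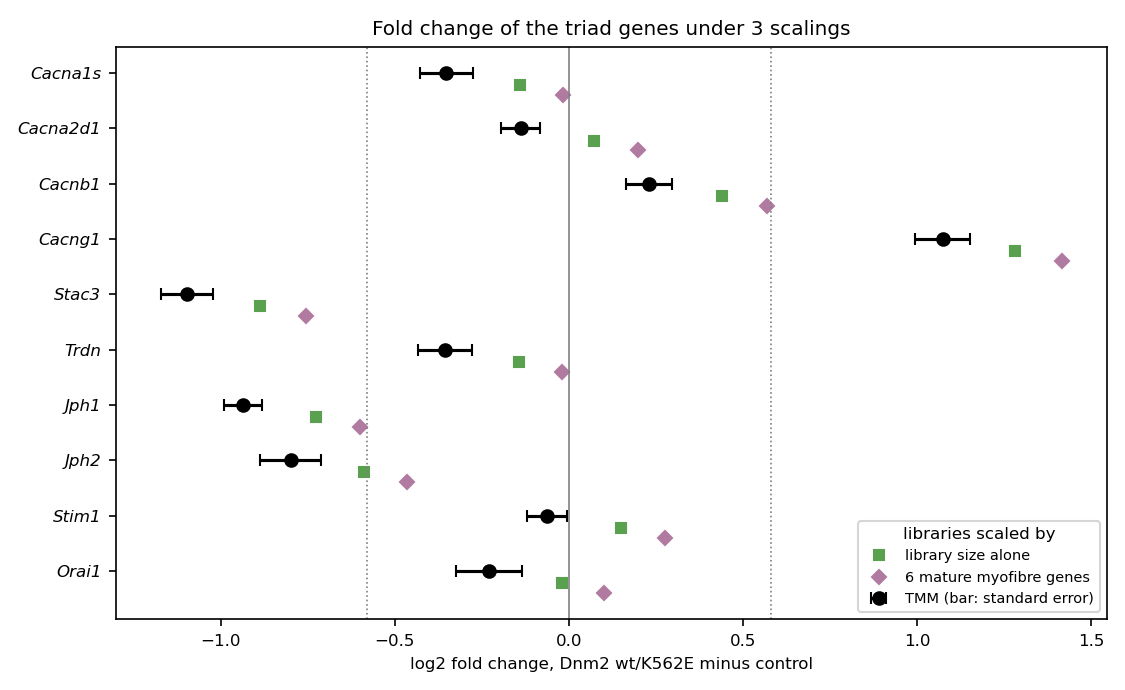
Log2 fold change (horizontal axis, Dnm2 wt/K562E minus control) of the 10 triad genes with TMM scaling (circles, bars are standard errors), with library size alone (squares) and with scaling to 6 mature myofibre genes (diamonds). Dotted lines mark 0.58 in either direction. All genes shift to the right together, Cacna2d1 and Stim1 change sign with both other scalings, and Orai1 with the myofibre genes.

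To describe the make-up of the triad transcripts without any scaling between libraries, counts were compared as log2 ratios within each mouse, by exact two-sided permutation tests adjusted over 11 ratios. The smallest p that 4 against 4 mice allow is 0.0286. Of 9 ratios to Cacna1s, which share this denominator, 7 separated the genotypes, each with an exact p of 0.0286 and an adjusted p of 0.0449. This adjusted p depends on 7 linked ratios being tied at the smallest p. Cacna1s itself fell (log2 fold change -0.35 with TMM scaling), so the ratio of an unchanged gene to it rises. The share of all tested genes whose ratio to Cacna1s separates the genotypes was not computed. Cacng1 had 0.0911 counts per count of Cacna1s in controls and 0.245 in mutants, a log2 difference of 1.43. Cacnb1 rose from 0.191 to 0.287 counts per count of Cacna1s. The accessory gamma and beta subunits thus made up more of the channel transcripts relative to the pore.

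Stac3 fell from 0.280 to 0.168 counts per count of Cacna1s (log2 difference -0.74), Jph1 from 0.285 to 0.191 (-0.58) and Jph2 from 0.496 to 0.367 (-0.44). Cacna2d1 and Stim1 were higher relative to Cacna1s by 0.22 and 0.29 on the log2 scale. Trdn was present at 1.63 counts per count of Cacna1s in both genotypes (log2 difference 0.00, SD within genotypes 0.129, exact p = 1.0, adjusted 1.0). The difference was 0.13 for Orai1 over Cacna1s (exact p = 0.343, adjusted 0.377), -0.14 for Jph1 over Jph2 (exact p = 0.2, adjusted 0.244) and 0.16 for Stim1 over Orai1 (exact p = 0.143, adjusted 0.197), and the genotypes overlapped in each.

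**Figure D3:**
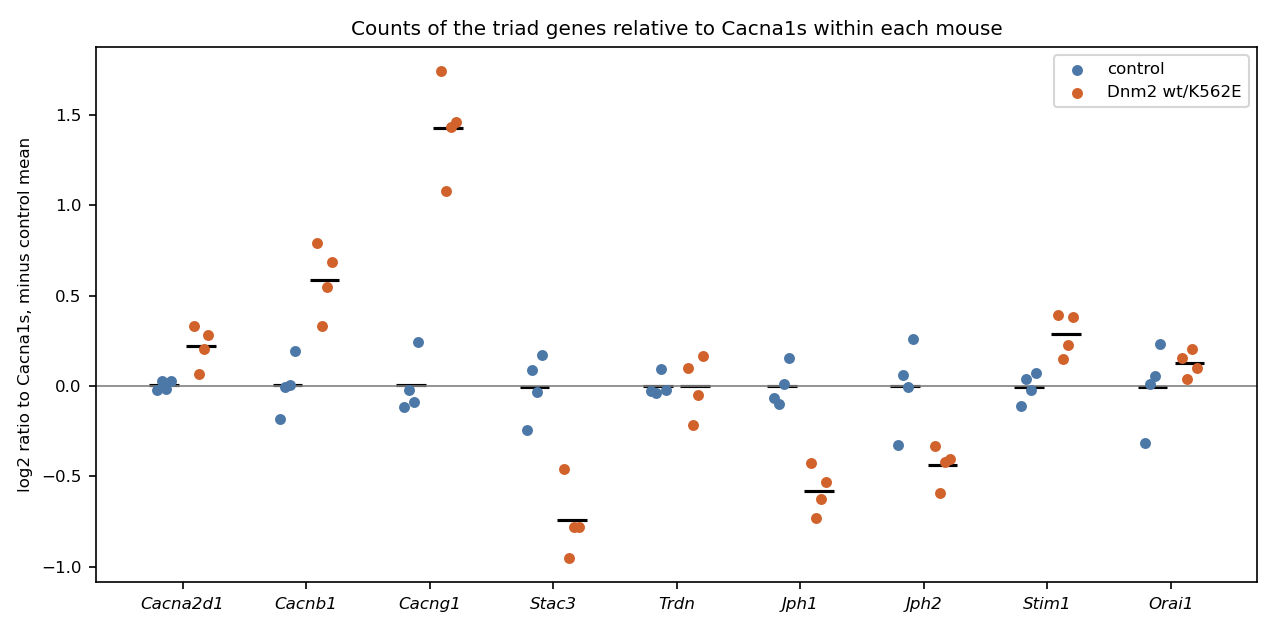
Log2 ratio of each gene's count to that of Cacna1s within a mouse (vertical axis, centred on the control mean), for controls (blue) and Dnm2 wt/K562E mice (orange), with bars at the means. Cacng1 stands 1.43 above and Stac3 0.74 below the control mean, and the genotypes overlap for Trdn and Orai1.

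Summed over the 10 genes, the level was 3028, 3126, 3272 and 3006 normalized CPM in controls and 2335, 2464, 2489 and 2580 in mutants (3108 ± 120.9 and 2467 ± 101.4, SD, n = 4). With TMM scaling, every mutant had a lower sum than every control, and the sum of the 6 mature myofibre genes was 0.769 of its control mean in the same libraries. Cacng1 took 1.88% of the members' counts in controls and 4.99% in mutants, and Stac3 took 5.80% and 3.42%. Cacna1s (20.6% and 20.4%) and Trdn (31.6% to 35.1% of counts in controls, 31.7% to 35.1% in mutants) held similar shares in both genotypes.

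Levels of different genes were compared per kilobase of exon. In controls, Trdn was highest, at 111.6 CPM per kb, followed by Cacna1s (97.9), Jph2 (75.1), Stac3 (70.8), Cacng1 (46.8), Jph1 (36.6), Cacnb1 (27.1), Stim1 (23.2), Cacna2d1 (22.1) and Orai1 (19.9). Ranges over the 4 controls overlapped between Jph2 and Stac3, between Stim1 and Cacna2d1, and between Cacna2d1 and Orai1. In Dnm2 wt/K562E mice, Cacng1 stood at 98.4 CPM per kb and came first in order, with a range that overlapped that of Trdn (87.2), whose range overlapped that of Cacna1s (76.7). Jph1 went from rank 6 to rank 9, at 19.1 CPM per kb. These levels depend on the gene model. Per kilobase of the longest transcript, Trdn measured 231.1 in controls and 180.7 CPM per kb in mutants, above Cacng1 in both. In controls, Stac3 then measured 100.6, Cacna2d1 36.85 and Stim1 55.12, which put Stim1 at rank 5 instead of rank 8.

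**Figure D4:**
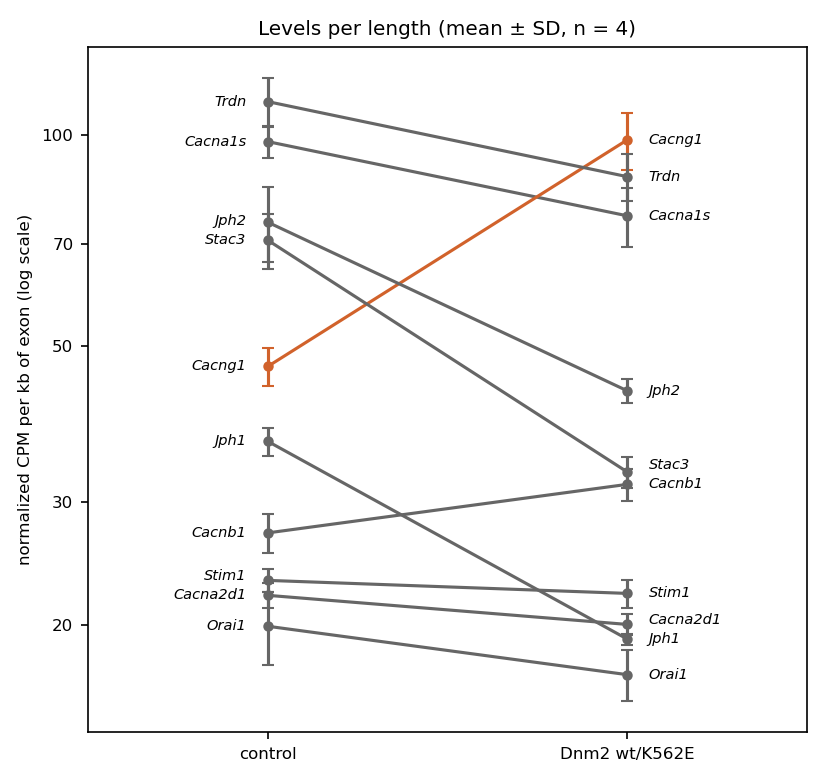
Mean level (vertical axis, normalized CPM per kb of exon, log scale) of the 10 triad genes in controls and Dnm2 wt/K562E mice, with SD over 4 mice. Cacng1 (orange) rises from 46.8 to 98.4 and crosses 4 genes, while Jph1 falls from 36.6 to 19.1.

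The remaining genes of the pathway were described from 5 lists. Of 23 tested genes (24 listed) of the release complex and the triad, 11 fell and 4 rose at the same threshold of adjusted p, where 21.7% of all tested genes fell and 22.2% rose, and the median log2 fold change was -0.23. The split turned to 8 lower and 8 higher with scaling by total counts alone (10.7% and 40.1% of all tested genes), and to 5 lower and 10 higher with the myofibre genes (6.45% and 50.1%). With TMM scaling kept, the exact test of edgeR gave 7 higher. Ryr1, the release channel, measured 1693, 1628, 1632 and 1640 normalized CPM in controls and 898.4, 1198, 1139 and 1028 in mutants. No mutant reached the controls, with a log2 fold change of -0.63 (SE 0.086, adjusted p = 1.9e-04, edgeR). Tmem38a, which encodes the TRIC-A potassium channel of the reticulum, fell by 0.84 on the log2 scale (from 1347 to 749.9 normalized CPM). Hrc, a calcium-binding protein of the reticulum, fell by 0.67 and the scaffold Homer2 fell by 0.87.

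Of the 23 genes, 8 did not pass the test. Among the partners of the release channel that were to be named in any case, Casq1, which encodes a calsequestrin, fell by 0.45 on the log2 scale (adjusted p = 5.29e-04, edgeR). Asph, whose locus also encodes junctin, fell by 0.41 (adjusted p = 8.17e-04), and Jsrp1, which encodes the junctional protein JP-45, fell by 0.27 (adjusted p = 0.0199) with overlapping genotypes. When scaled to the myofibre genes, Casq1 (-0.11, adjusted p = 0.326) and Asph (-0.08, adjusted p = 0.407) no longer passed the test. Jsrp1 was 0.06 in that scaling and -0.06 with scaling by total counts alone (adjusted p = 0.486), and it lost the call on leaving out any of 4 mice (controls 2 and 3, mutants 1 and 3). Higher were Jph4, the junctophilin of neurons (2.05, but at 0.659 and 2.71 CPM), Selenon, a selenoprotein of the reticulum (0.63), and the scaffold Homer3 (0.48).

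Of the other calcium channel subunits and channel inhibitors, 16 of 26 passed the filter on low counts, so that genes with few or no counts in this muscle are not included. Among them, 7 were higher and 3 lower, with a median of 0.43, against the same 22.2% higher and 21.7% lower of all tested genes. The split was 10 higher and 2 lower with scaling by total counts alone (40.1% and 10.7% of all tested genes), and 10 higher and 1 lower with the myofibre genes (50.1% and 6.45%). Cacna1g, the pore of a T-type channel, measured 7.686, 8.167, 7.592 and 7.625 normalized CPM in controls and 23.74, 16.90, 17.94 and 20.21 in mutants (log2 fold change 1.34, adjusted p = 6.11e-06, edgeR). The mutants did not overlap the controls. The beta subunit Cacnb3 (0.92) and the gamma-family gene Cacng7 (0.73) were higher too, both at a low level. The T-type pore Cacna1h (-0.60), Cacna2d4 (-1.30) and Cacng6 (-0.36) were lower, although Cacna2d4, at under 1 CPM, lost the call without control 2, mutant 1 or mutant 2. Cacng6, the closest relative of Cacng1 in muscle, was 76.3 ± 6.93 in controls and 59.4 ± 5.26 normalized CPM in mutants, in the opposite direction to Cacng1. With scaling by total counts alone, Cacng6 was -0.15 and did not pass the test (adjusted p = 0.164), and with the myofibre genes neither Cacng6 nor Cacna1h passed it.

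Of 10 genes that shape the T-tubule or anchor the triad, 5 were lower and 1 higher (median -0.27), against 21.7% lower and 22.2% higher of all tested genes. The split was 3 lower and 3 higher with scaling by total counts alone (10.7% and 40.1% of all tested genes), and 2 lower and 3 higher with the myofibre genes (6.45% and 50.1%). Dnm2 itself measured 68.85, 68.51, 59.21 and 68.71 normalized CPM in controls and 74.19, 76.07, 73.15 and 70.27 in mutants. Its log2 fold change was 0.15 (adjusted p = 0.091, edgeR). It passed the test with scaling by total counts alone (0.36, adjusted p = 0.00271) and with the myofibre genes (0.49, adjusted p = 7.38e-04). The point mutation does not remove the transcript, so this level does not check the genotype labels. Bin1, which bends the T-tubule membrane, differed by 0.02 (adjusted p = 0.798, edgeR). The difference was 0.23 with scaling by total counts alone (adjusted p = 0.00743) and 0.36 with the myofibre genes (adjusted p = 0.003). Cav3, muscle caveolin, was higher (0.45), and the kinase Speg (-0.59) and the membrane anchor Ank1 (-0.41) were lower. When scaled to the myofibre genes, Ank1 and Atp2a2 no longer passed the test.

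Of 10 other store-operated entry genes tested (11 listed), 1 was higher, the channel Orai2 (1.33, from 2.96 to 7.49 normalized CPM), and 1 lower, the STIM1 brake Saraf (-0.21, but 0.0049 with scaling by total counts alone). Both counts lay below the shares of all tested genes (22.2% higher, 21.7% lower). The number higher was 2 without control 3, mutant 1 or mutant 2, and the number lower was 0 without control 2, control 3, mutant 2 or mutant 3. With scaling by total counts alone 3 were higher and 0 lower (40.1% and 10.7% of all tested genes), and with the myofibre genes 4 were higher and 0 lower (50.1% and 6.45%). Of 8 matched genes of calcium reuptake and buffering (10 listed, Mrln and Strit1 unmatched), 4 were lower and 2 higher, against 21.7% lower and 22.2% higher of all tested genes. The split was 3 lower and 4 higher with scaling by total counts alone (10.7% and 40.1% of all tested genes), and 2 lower and 4 higher with the myofibre genes (6.45% and 50.1%). The pump inhibitor sarcolipin, Sln, measured 61.34, 68.63, 116.2 and 90.74 normalized CPM in controls and 292.5, 288.4, 281.8 and 306.6 in mutants (1.79, adjusted p = 1.41e-05, edgeR). The related inhibitor Pln was higher by 0.83. The fast pump Atp2a1 was 7716 and 3390 normalized CPM on average (-1.19), the slow pump Atp2a2 had a log2 fold change of -0.54 (-0.20 with the myofibre genes, adjusted p = 0.108), and the fast-fibre calcium buffer Pvalb one of -3.34. Control 4 had 946.1 normalized CPM of Pvalb, against 341.5 to 469.1 in the other controls, and the log2 fold change of Pvalb was -2.93 without this mouse.

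**Figure D5:**
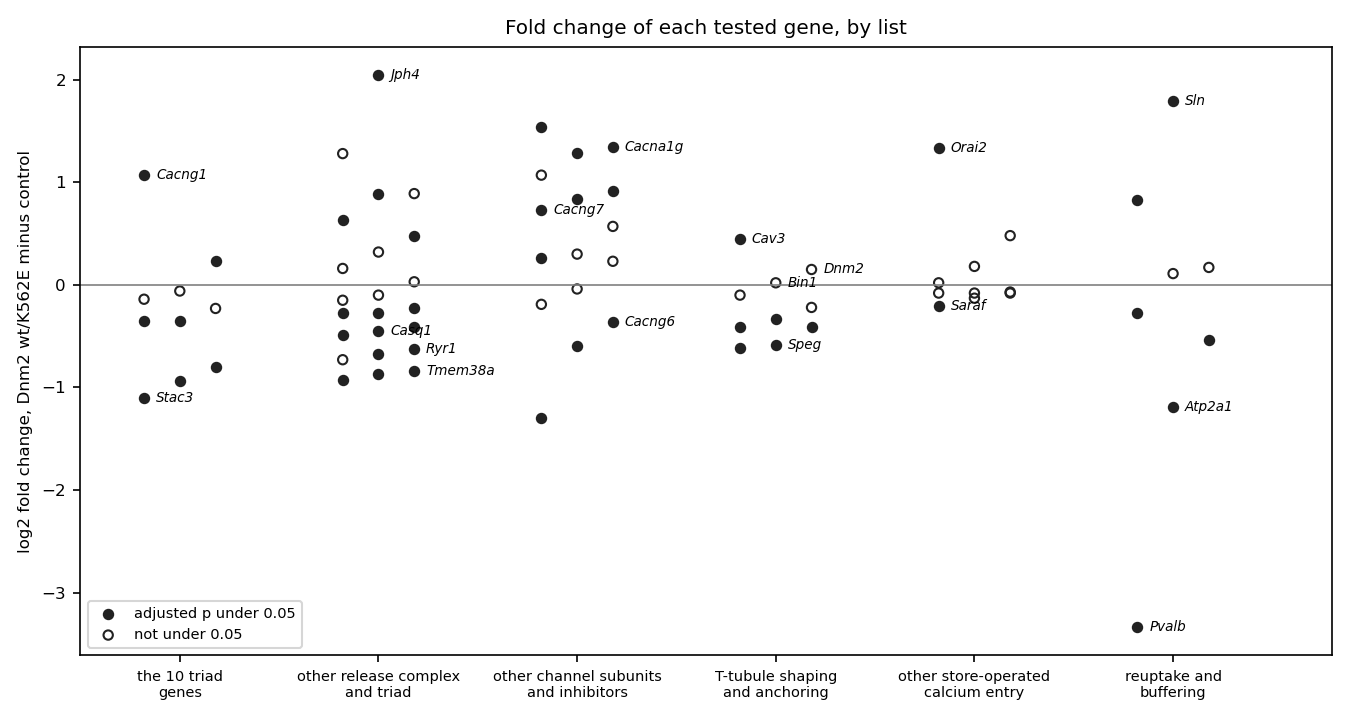
Log2 fold change (vertical axis, Dnm2 wt/K562E minus control, TMM scaling) of every tested gene in 6 lists, filled where the adjusted p was under 0.05. The 10 triad genes span -1.10 (Stac3) to 1.07 (Cacng1), and the release complex list has 11 filled points below 0 and 4 above.

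Fibre and cell type markers differed between the same mice. Calls in these lists use adjusted p, by which 22.2% of all tested genes were higher and 21.7% lower. Mature myofibre genes (4 of 6 lower and 1 higher, most abundant Acta1) summed to 55500, 59340, 61960 and 56200 normalized CPM in controls and 40810, 45720, 46230 and 46500 in mutants. Slow fibre genes (4 of 5 lower, most abundant Myh7) summed to 0.695 and fast fibre genes (5 of 7 lower, most abundant Myh2) to 0.683 of the control mean. Myh7 was present at 5808 to 6384 normalized CPM in controls, so the slow myosin of this muscle was well represented.

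Genes of immature or regenerating fibres (5 of 7 higher, most abundant Myh3) summed to 115.2, 106.7, 113.5 and 116.1 normalized CPM in controls and 673.6, 518.8, 502.2 and 585.7 in mutants. Fibroblast genes (4 of 4 higher, most abundant Dcn) summed to 1475, 1157, 1280 and 1817 in controls and 3250, 3119, 2823 and 2545 in mutants. Macrophage genes (4 of 4 higher, most abundant Csf1r) summed to 44.66, 45.35, 45.06 and 80.61 in controls and 167.3, 129.3, 132.2 and 96.78 in mutants. None of these 3 lists overlapped between the genotypes. Their calls stand against 22.2% higher and 21.7% lower of all tested genes.

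Tendon genes (3 of 3 higher, most abundant Tnmd) summed to 2.52 times the control mean. Satellite cell genes (2 of 2 lower, most abundant Pax7) summed to 0.206, endothelial genes (3 of 3 lower, most abundant Cdh5) to 0.763, smooth muscle genes (3 of 3 lower, most abundant Acta2) to 0.604 and red blood cell genes (4 of 4 lower, most abundant Hbb-bs) to 0.513 of it. The satellite cell sum was at a low level, with means of 8.93 normalized CPM in controls and 1.84 in mutants. Beside these calls, 22.2% of all tested genes were higher and 21.7% lower by adjusted p. Adipocyte genes (0.79, most abundant Adipoq) overlapped between the genotypes, and 0 of 3 reached even an unadjusted p under 0.05 (edgeR). No marker was at 0 in all mice. The part of these differences in the levels of the triad genes was not tested.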

How the data were processed

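The authors prepared 1 library per mouse, trimmed reads with Trimmomatic 0.33, aligned them with STAR 2.5.1b to GRCm38 and deposited raw counts per Ensembl gene made with featureCounts, which assigned a read to every gene it overlapped. Whether strand was used is not given in the sources used here. The labels name a total RNA kit and the methods poly A-enriched RNA. Of 22880 identifiers, 22647 matched GENCODE M21, which gave symbols, positions and exon lengths.

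Counts were filtered with filterByExpr (minimum count 10, minimum total 15), scaled by TMM and tested with the quasi-likelihood F-test of edgeR 4.0.16 in R 4.3.3, adjusted over 14001 genes by Benjamini-Hochberg. The exact test of edgeR, which the study used, DESeq2 1.42.0, other scalings and filters, replicate blocks and leaving out each mouse were alternatives. Ratios used counts plus 0.5 and exact permutation tests (scipy 1.17.1). The fit was tested on simulated data. Genes named were the 10 members, Dnm2, Ryr1, Asph, Casq1, Jsrp1, Bin1 and, per list, up to 3 called genes in each direction with the smallest p. The Pvalb and Myh4 levels of control 4 were picked out once their values were known. A gene that this rule names and a marker list are not reported here. The members and lists were chosen with earlier results of these data known.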

Additional observations from a re-analysis of the deposited data

Results flagged for a closer look

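Among 100 groups of 4 mice tested for a value far from the others (gap over range above 0.829), 5 held one, and chance gives about 1 in 20. Cacna2d1 in control 4 was 257.8 normalized CPM, below the other controls and nearest to the mutants. Cacna1g in control 2 was 8.167 normalized CPM, above the other controls. Bin1 in Dnm2 wt/K562E mouse 4 was 485.5 normalized CPM, above the other mutants. Dnm2 in control 3 was 59.21 normalized CPM, below the other controls. The log2 ratio of Trdn over Cacna1s in control 3 was 0.7944, above the other controls.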

How the results depend on the processing

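Of 180 member results under 18 alternatives, 168 kept their direction and their side of the threshold, 4 lost the call, 3 gained it in the same direction and 5 changed sign. Among those that changed sign, Stim1 with library size alone and with the myofibre genes passed the test in the new direction. Cacna2d1 did so with the myofibre genes. Of the 11 ratios, 10 kept their sign with a pseudocount of 10 and on leaving out each mouse, while Trdn over Cacna1s ranged from -0.055 to 0.073. No p was computed for the ratios in these alternatives. With library size alone, 2865 genes were higher and 564 lower by both thresholds, 3 members were higher and 3 lower by adjusted p, and Cacna2d1 (0.0736), Stim1 (0.149) and Saraf (0.0049) changed sign. Scaled to mature myofibre genes, an alternative chosen after seeing the data, 3832 genes were higher and 388 lower, 4 members were higher and 3 lower by adjusted p, and Cacna2d1 (0.20), Stim1 (0.27), Orai1 (0.10), Jsrp1 (0.0599) and Saraf (0.135) changed sign. Each of these settings shifts all genes together, so the median of all genes moves with it. The log2 fold change of Bin1 ranged from -0.0289 (without Dnm2 wt/K562E mouse 4) to 0.0469 on leaving out 1 mouse, and was -0.0112 without control 1. Leaving out each mouse in turn gave 1588 to 1970 higher and 1026 to 1208 lower genes. Mice that share a number are separate animals whose deviations correlated at -0.114 by title number and -0.03 by description number, so they were not taken as pairs. With either number as a replicate block, 2 members were higher and 5 lower by adjusted p, and 1 and 3 by both thresholds. Saraf lost its call with the title numbers as a block (-0.21, adjusted p = 0.0637, edgeR) and on leaving out several of the mice. Of release complex genes, 7 were higher with the exact test and 8 with library size alone. With the myofibre scaling, 10 of them were higher and 5 lower. T-tubule genes were 3 higher and 3 lower with library size alone, and 3 and 2 with the myofibre scaling. Other store-operated entry genes were 2 higher with the exact test, 3 with library size alone and 4 with the myofibre scaling, and 0 were lower with the last 2. Reuptake genes were 4 higher in both scalings and 2 lower with the myofibre genes, where 1 of the other channel genes was lower. By adjusted p alone, 5608 genes were higher and 1504 lower with library size, and 7008 and 903 with the myofibre scaling. With library size alone, fibre marker sums were 0.89 (mature), 0.806 (slow), 0.789 (fast) and 5.85 (immature or regenerating) times the control mean. In that scaling, endothelial genes summed to 0.882 and smooth muscle genes to 0.699 of the control mean. Each member had 1274 counts or more in every mouse, whereas Jph4, Cacna2d4 and the satellite cell gene Calcr rest on few counts.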
